A study of Mus musculus with 6 samples.

Results

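Genes that act in growth arrest or respond to the tumour suppressor p53 were followed in RNA-seq of the gastrocnemius (GAS) muscle: *Cdkn1a*, *Gadd45a*, *Gadd45b*, *Gadd45g*, *Btg1*, *Btg2*, *Ccng1*, *Mdm2*, *Sesn1* and *Trp53inp1*. They were taken by gene symbol from the deposited table, and all 10 were found among its 24532 genes. The mice were C57BL/6 males of about 20 weeks of age. All 6 animals carried the Sirt6 flox/flox alleles. The 3 animals labelled WT (libraries WT1, WT4 and WT6, replicates 1, 2 and 3) carried no Cre by their label, and the 3 labelled *Sirt6* KO (KO3, KO6 and KO7, replicates 1, 2 and 3) also carried *Myl1-Cre*, which recombines in skeletal muscle fibers and acts mainly in fast fibers. No animal carried the Cre without the flox alleles, so Cre itself and the deletion cannot be told apart. Sirt6 is a histone deacetylase, and the comparison asked which transcripts differ in muscle when it is deleted from the fibers. WT and *Sirt6* KO are used throughout as the names that the labels give.

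p53 is a transcription factor that is stabilized by DNA damage and other stress and switches on genes that stop the cell cycle, repair DNA, restrain growth or trigger cell death. *Mdm2*, one of its targets, encodes the ubiquitin ligase that sends p53 to degradation, so that the pair forms a feedback loop. Skeletal muscle fibers no longer divide, and several of these genes are known in muscle for other settings: *Cdkn1a* for cell cycle exit during myoblast differentiation, and *Cdkn1a* and *Gadd45a* for their rise after loss of the nerve.

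The libraries held between 44845763 and 63016899 counts on genes, and 13801 genes passed the filter on low counts, all 10 growth arrest genes among them. *Sirt6* went against the labels: it lay between 2.23 and 2.88 CPM (counts scaled by the normalized library size) in the libraries labelled WT and between 6.68 and 7.81 in those labelled *Sirt6* KO, which amounts to 1.48 on the log2 scale (SE 0.17, adjusted p = 0.0113 by edgeR). *Myl1*, the gene whose promoter drives the Cre, had a log2 fold change of -0.050 (adjusted p = 0.916 by edgeR). Counts per gene do not show whether the deleted exons of *Sirt6* were read, and an exchange of labels was not tested, so each direction below rests on the labels. All 12 myofiber markers passed the filter on low counts and summed to between 153390 and 225955 CPM in WT and between 220643 and 250535 in *Sirt6* KO, with none past the threshold. These sums are carried by genes of fast fibers. The slow-fiber gene *Myh7* was at 1138, 958 and 21.7 CPM in WT1, WT4 and WT6 and at 100.1, 720.3 and 163 in KO3, KO6 and KO7, and *Tnnt1* was at 388, 318 and 7.49 and at 24.7, 205 and 38.7, so that WT6 was the lowest library of all in both. WT6 also stood apart from WT1 and WT4 in its markers of blood vessels: the 6 smooth muscle and pericyte markers summed to 411 CPM in WT1, 482 in WT4 and 207 in WT6, and to between 186 and 220 in the *Sirt6* KO libraries, with 2 of the 6 lower (*Cnn1* and *Rgs5*). The erythroid markers were lowest in WT6 too, at 46.6 CPM against 297 in WT1 and 291 in WT4. None of the endothelial, macrophage, fibroblast, adipocyte, erythroid or T cell markers passed the threshold, and of the 7 satellite cell markers 1 was lower (*Sdc4*) and 2 were higher. In bulk muscle, fewer cells of a type and less RNA per cell cannot be told apart.

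The stretches below lie just before the annotated transcription start sites of 5 of the genes and are shown because they hold the motif of p53 or of CREB, a factor examined in the study. The sequences are from RefSeq promoters on GRCm38.p6, of 250 bases before to 50 bases after the start site, which were found for 9 of the 10 genes and not for *Trp53inp1*. *Cdkn1a* and *Sesn1* had 2 such promoters each. Capitals mark the p53 decamer (3 purines, C, 2 letters of A or T, G and 3 pyrimidines, which reads alike on both strands) or, in *Btg2*, the full cAMP response element (CRE, TGACGTCA). Positions are counted from the start site.
*Cdkn1a*, chr17:29090879-29090968, plus strand: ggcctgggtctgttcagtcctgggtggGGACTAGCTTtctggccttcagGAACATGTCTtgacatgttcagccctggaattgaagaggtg
*Ccng1*, chr11:40755422-40755511, minus strand: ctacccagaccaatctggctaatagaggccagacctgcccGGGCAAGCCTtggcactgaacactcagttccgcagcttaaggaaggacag
*Mdm2*, chr10:117710894-117710983, minus strand: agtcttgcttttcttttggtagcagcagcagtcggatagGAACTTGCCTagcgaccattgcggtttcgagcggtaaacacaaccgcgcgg
*Gadd45a*, chr6:67037408-67037497, minus strand: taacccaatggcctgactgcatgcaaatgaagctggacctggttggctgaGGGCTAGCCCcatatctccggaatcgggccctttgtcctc
*Btg2*, chr1:134079276-134079365, minus strand: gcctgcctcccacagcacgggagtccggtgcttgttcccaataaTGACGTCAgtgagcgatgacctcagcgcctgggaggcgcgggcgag

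The p53 decamer matched in 5 of the 9 genes with a promoter (*Cdkn1a*, *Ccng1*, *Mdm2*, *Gadd45a* and, from its downstream start, *Sesn1*), against 9.55% of all 27025 genes in the same table, or 8.36% of its 32851 promoters. It began at -73 and at -51 in *Cdkn1a*, at -185 in *Ccng1*, at -186 in *Mdm2* and at -40 in *Gadd45a*. The full CRE matched at -166 in *Btg2* only, 1 of the 9 genes, against 2.03% of all genes. The p53 motif was searched as a single decamer and not as a full site. The CRE core alone, TGACG on either strand, matched in *Btg1*, *Mdm2* and *Sesn1* as well as in *Btg2*, against 23% of all genes. These are matches of letters in a short window and not sites shown to be bound, and the genes were listed for their known tie to p53.

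Of the 10 genes, 4 were lower in the *Sirt6* KO libraries and 6 did not pass the test. The 4 fell at an adjusted p under 0.05 (quasi-likelihood F-test of edgeR, Benjamini-Hochberg over 13801 genes): *Trp53inp1*, *Ccng1*, *Cdkn1a* and *Btg2*. Over all genes tested, 8.39% were lower at that threshold, 7.85% were higher and 16.2% changed in either direction. No growth arrest gene was higher by this test, by DESeq2 or at an unadjusted p under 0.05, and 6 were lower at an unadjusted p under 0.05, a threshold that 35.3% of all genes passed. The log2 fold change was below 0 for 9 of the 10, with a median of -0.82, against -0.021 over all genes tested. At the threshold of the study (over 2-fold with an unadjusted p under 0.05) 4 of the 10 passed, all lower, against 7.83% of all genes, or 4.69% counting only those that were lower. These were *Trp53inp1*, *Btg2*, *Gadd45b* and *Cdkn1a*, while *Ccng1*, at 1.68-fold, was not among them. The groups did not overlap in 4 of the 10, all lower, against 40.0% of all genes in either direction and 19.6% that were lower. With fold changes corrected for the GC content of the transcripts, 2 of the 10 were lower at the adjusted threshold (3.60% of all genes). Without library KO3, or without KO7, none of the 10 passed the adjusted threshold, at which 0.0142% and 0.0354% of all genes were lower. At an unadjusted p under 0.05, 4 of the 10 were lower in each case. The genes that were lower at that p numbered 1827 of 14084 without KO3 and 1738 of 14115 without KO7. Without WT1, WT4 or KO6 the genes that passed numbered 2, 1 and 2, all lower, against 1.85%, 1.09% and 3.14% of all genes.

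**Figure D1:**
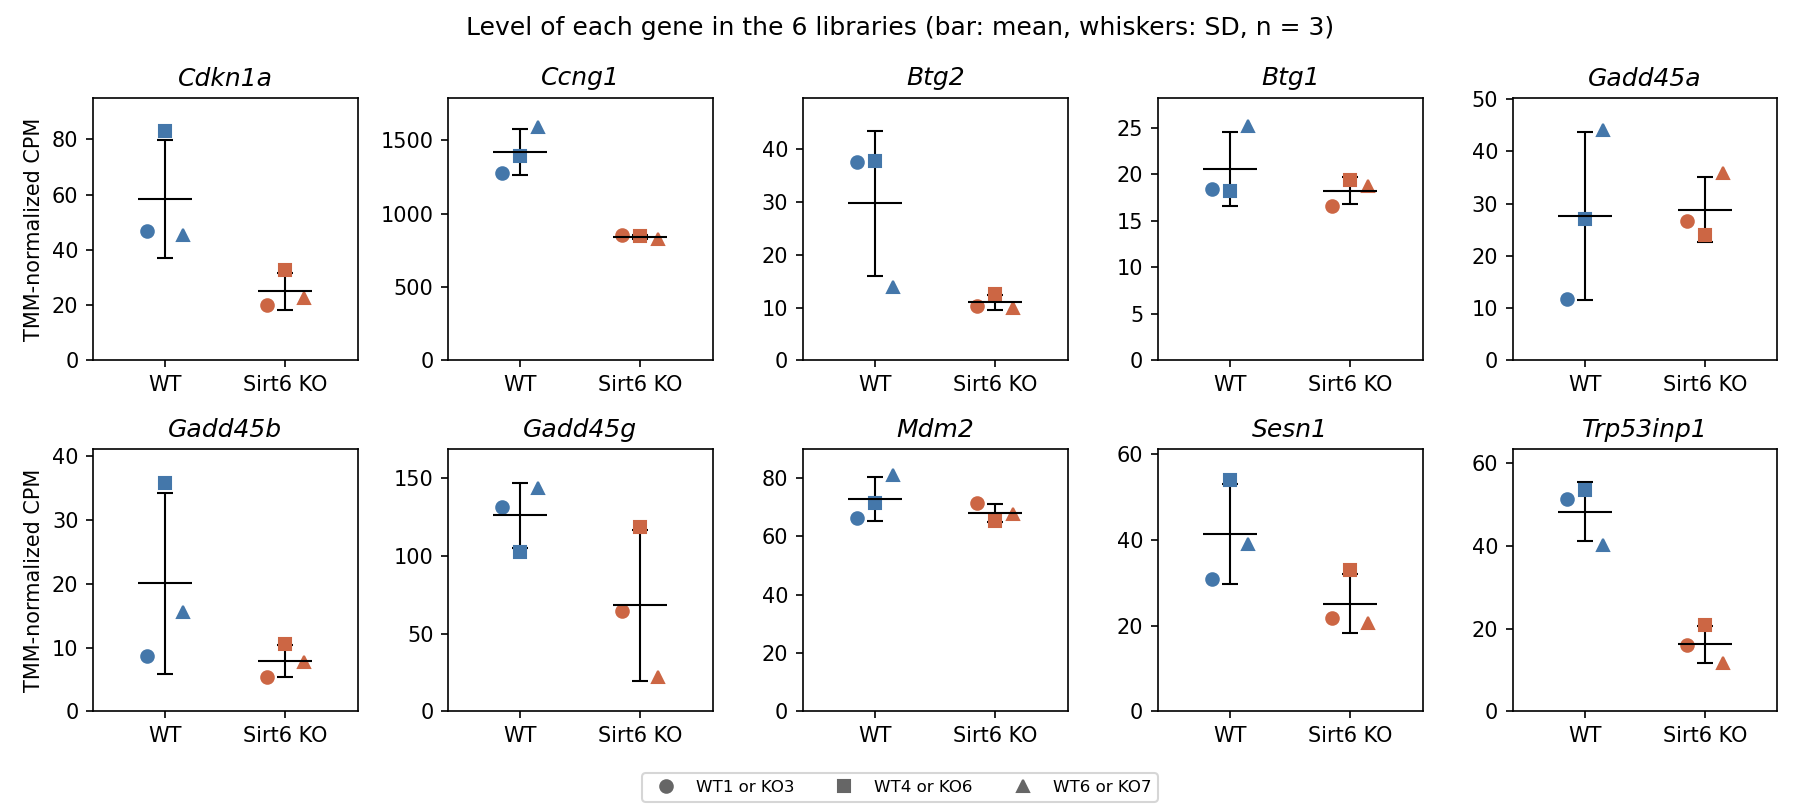
Level of the 10 genes in TMM-normalized CPM (y axis) in the 3 WT and 3 *Sirt6* KO libraries (x axis), 1 point per library, with the group mean and SD. The groups lie apart in *Cdkn1a*, *Ccng1*, *Btg2* and *Trp53inp1*, and overlap in the other genes.

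*Trp53inp1* (NCBI gene 60599; chromosome 4, 11156441 to 11174379 of GRCm38), which encodes a stress protein of autophagy that also promotes the activity of p53, had the smallest p of these genes. It was at 51.3, 53.4 and 40.1 CPM in WT1, WT4 and WT6, and at 16.0, 20.8 and 11.7 in KO3, KO6 and KO7. Every *Sirt6* KO library was below every WT library. The mean fell from 48.3 ± 7.17 to 16.2 ± 4.57 CPM (SD, n = 3 each), 2.98-fold lower, with a log2 fold change of -1.58 (SE 0.22, adjusted p = 0.0132 by edgeR). The transcript is poor in G and C (38.8% GC, against a median of 49.8% over the genes tested), and fold changes rose with GC content over all genes. With that trend removed the log2 fold change was -1.23 and *Trp53inp1* still passed the threshold. It also passed in 4 of the 6 fits that left out 1 library, the exceptions being those without KO3 (adjusted p = 0.0608) and without KO7 (0.0685).

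*Ccng1* (gene 12450; chromosome 11, 40748552 to 40755309) encodes cyclin G1, a p53 target that brings the phosphatase PP2A to Mdm2. Its level was 1276, 1391 and 1586 CPM in WT1, WT4 and WT6, and 855, 846 and 828 in KO3, KO6 and KO7. The 3 *Sirt6* KO libraries lay within a narrow band below all WT libraries. The mean was 1418 ± 157 CPM in WT and 843 ± 13.6 in *Sirt6* KO (SD, n = 3 each), 1.68-fold lower, with a log2 fold change of -0.75 (SE 0.14, adjusted p = 0.0196 by edgeR). This transcript is poor in GC as well (40.8%), and after removal of the trend over GC the log2 fold change was -0.45 with an adjusted p of 0.0866. The call was also lost without WT4 (0.0672), KO3 (0.0775), KO6 (0.0624) or KO7 (0.101), at log2 fold changes between -0.76 and -0.74.

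*Cdkn1a* (gene 12575; chromosome 17, 29090979 to 29100722) encodes p21, the inhibitor of cyclin-dependent kinases through which p53 halts the cell cycle. It was at 46.8, 83.1 and 45.4 CPM in WT1, WT4 and WT6, and at 19.9, 32.6 and 22.7 in KO3, KO6 and KO7. WT4 was the highest library, and the highest *Sirt6* KO library stayed below the lowest WT library. The mean fell from 58.4 ± 21.3 to 25.1 ± 6.64 CPM (SD, n = 3 each), 2.33-fold lower, with a log2 fold change of -1.22 (SE 0.28, adjusted p = 0.0315 by edgeR). Without WT4 it was -0.88 (adjusted p = 0.0738), and the call was also lost without WT1 (0.0691), KO3 (0.112) or KO7 (0.120), and with limma on log2(FPKM + 1) (0.0540). In GENCODE M21 *Cdkn1a* shares 273 exonic bases with *AC167363.2* on the opposite strand, which is absent from the deposited counts. Whether reads were counted by strand is not given in the sources used here.

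*Btg2* (gene 12227; chromosome 1, 134074865 to 134079155) and *Btg1* (gene 12226; chromosome 10, 96617001 to 96622813) encode related antiproliferative proteins that recruit the CCR4-NOT complex to shorten the poly(A) tails of mRNA. *Btg2* is induced by p53 and by growth signals. It was at 37.6 and 37.8 CPM in WT1 and WT4 but at 13.8 in WT6, and at 10.3, 12.6 and 9.99 in KO3, KO6 and KO7. WT6 therefore lay near the *Sirt6* KO libraries, though still above them. The mean was 29.7 ± 13.8 CPM in WT and 11.0 ± 1.44 in *Sirt6* KO (SD, n = 3 each), 2.70-fold lower, with a log2 fold change of -1.43 (SE 0.36, adjusted p = 0.0379 by edgeR). WT6 was also the lowest WT library in the vessel markers given above, where it lay within the range of the *Sirt6* KO libraries, and in the 7 endothelial markers, where it lay below them. The latter summed to 260, 283 and 154 CPM in WT1, WT4 and WT6 and to between 186 and 191 in *Sirt6* KO. Their part in the result was not tested. Without WT6 the adjusted p was 0.00402, and in each of the other 5 fits that left out 1 library (without WT1, WT4, KO3, KO6 or KO7: 0.121, 0.110, 0.124, 0.0777 and 0.131) the call was lost. It was also lost with the GC correction (-1.46, adjusted p = 0.0521) and with limma on log2(FPKM + 1) (-1.10, adjusted p = 0.0941).

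*Btg1* was at 18.4, 18.2 and 25.2 CPM in WT1, WT4 and WT6 and at 16.6, 19.4 and 18.7 in KO3, KO6 and KO7. The groups overlapped, and the log2 fold change was -0.18 (SE 0.16, adjusted p = 0.450 by edgeR). In deposited TPM *Btg1* was at 8.81, 8.20 and 9.72 in WT1, WT4 and WT6, and at 6.97, 7.70 and 7.41 in KO3, KO6 and KO7, without overlap. The ratio of *Btg2* to *Btg1* within each library, in deposited TPM, was 3.32 in WT1, 3.37 in WT4 and 0.891 in WT6, and 1.01, 1.06 and 0.866 in KO3, KO6 and KO7. WT6 thus sat among the *Sirt6* KO libraries in this ratio (two-sided exact permutation test, p = 0.3).

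The *Gadd45* genes encode 3 small acidic proteins that bind PCNA and the kinase Map3k4 and link stress to growth arrest and p38 signaling. None of them passed the threshold, and the animals of 1 or both groups differed several fold in each. *Gadd45b* (gene 17873; chromosome 10, 80930091 to 80932204) was at 8.66, 35.8 and 15.6 CPM in WT1, WT4 and WT6, and at 5.45, 10.5 and 7.72 in KO3, KO6 and KO7. KO6 was above WT1, so the groups overlapped, and the log2 fold change was -1.34 (SE 0.50, adjusted p = 0.103 by edgeR and 0.0171 by DESeq2). Without WT4 it was -0.62.

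*Gadd45g* (gene 23882; chromosome 13, 51846675 to 51848475) was at 132, 103 and 144 CPM in WT1, WT4 and WT6. In KO3, KO6 and KO7 it was at 64.4, 119 and 21.99, a spread of several fold within the group, and KO6 fell among the WT libraries. The log2 fold change was -0.88 (SE 0.51, adjusted p = 0.255 by edgeR). It was -1.53 (adjusted p = 0.0799) without KO6 and -0.46 (adjusted p = 0.363) without KO7.

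*Gadd45a* (gene 13197; chromosome 6, 67035096 to 67037407) was at 11.8, 27.1 and 44.0 CPM in WT1, WT4 and WT6, and at 26.7, 24.1 and 35.8 in KO3, KO6 and KO7. It was the only growth arrest gene with a log2 fold change above 0 (0.062, SE 0.42, adjusted p = 0.930 by edgeR), a sign that turned without WT1 (-0.29) or without KO7 (-0.12). In GENCODE M21 it shares 337 exonic bases with the antisense gene *E230016M11Rik*, whose own counts came to 0.437 ± 0.153 CPM in WT and 0.526 ± 0.128 in *Sirt6* KO (SD, n = 3 each), and whether reads were counted by strand is not given in the sources used here.

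Within each library, *Gadd45g* made up 88.1%, 65.3% and 73.4% of the summed TPM of the 3 *Gadd45* genes in WT1, WT4 and WT6, and 69.5%, 79.7% and 36.5% in KO3, KO6 and KO7. *Gadd45a* made up 6.95%, 15.2% and 19.8% in WT, and 25.5%, 14.3% and 52.5% in *Sirt6* KO. In KO7 alone *Gadd45a* was therefore the most abundant of the 3. Both shares overlapped between the groups (two-sided exact permutation tests, p = 0.5 and p = 0.3). With groups of 3 this test cannot give a p under 0.1, so it does not decide whether the shares differed.

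*Mdm2* (gene 17246; chromosome 10, 117688875 to 117710758) was at 66.2, 71.7 and 81.0 CPM in WT1, WT4 and WT6, and at 71.4, 65.2 and 67.6 in KO3, KO6 and KO7. The groups overlapped, with a log2 fold change of -0.10 (SE 0.11, adjusted p = 0.552 by edgeR).

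*Sesn1* (gene 140742; chromosome 10, 41810574 to 41908436) encodes sestrin 1, a p53 target that restrains mTORC1 through the GATOR complexes. It was at 30.9, 53.9 and 39.2 CPM in WT1, WT4 and WT6, and at 21.8, 33.0 and 20.6 in KO3, KO6 and KO7. KO6 exceeded WT1, so the groups overlapped. The log2 fold change was -0.72 (SE 0.25, adjusted p = 0.0915 by edgeR and 0.0334 by DESeq2). *Sesn2* was at 1.25 ± 0.405 CPM in WT and 2.15 ± 0.601 in *Sirt6* KO, and *Sesn3* at 3.16 ± 1.01 and 3.49 ± 0.536 (SD, n = 3 each), with adjusted p-values of 0.143 and 0.738.

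**Figure D2:**
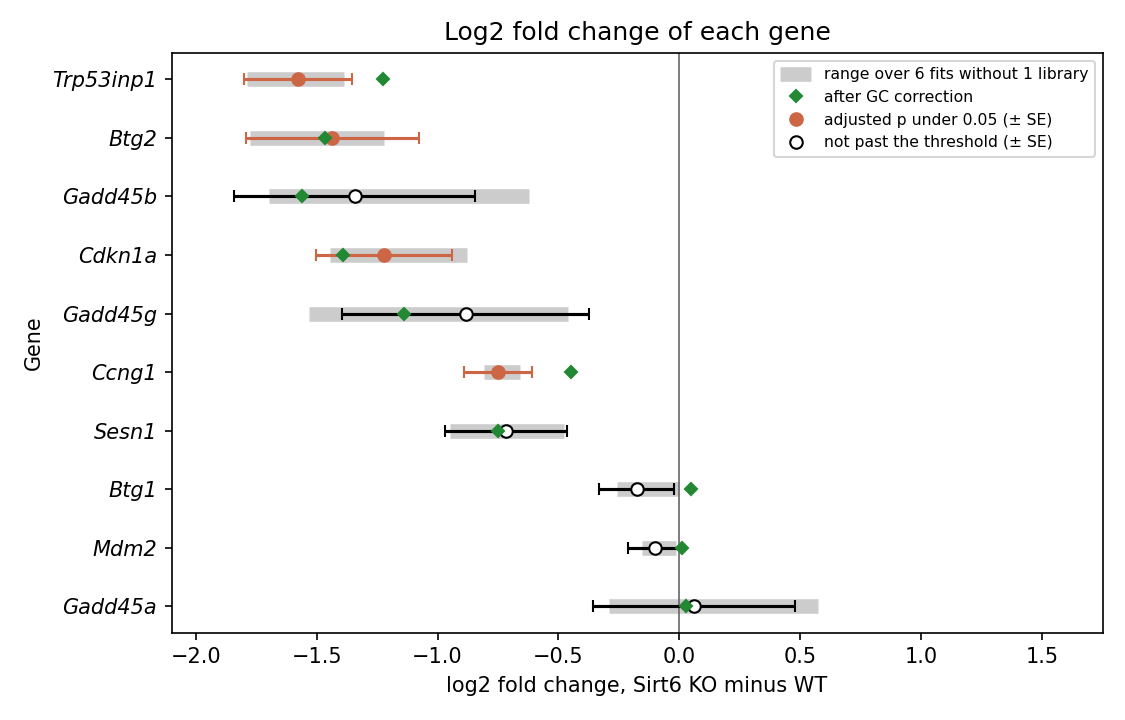
Log2 fold change of each gene (x axis, *Sirt6* KO minus WT) with its SE, the range over the 6 fits that left out 1 library (grey bars) and the value after removal of the trend over GC content (diamonds). The 4 genes past the adjusted threshold run from -1.58 to -0.75, and *Gadd45b* and *Gadd45g* have the widest errors (0.50 and 0.51).

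*Mdm2* had a small error and did not pass the threshold, and ratios to *Mdm2* were taken within each library. This comparison was chosen after the levels were seen and does not depend on the scaling between libraries. In TPM, the measure of these ratios, *Mdm2* was at 51.3, 52.2 and 50.5 in WT1, WT4 and WT6, and at 48.3, 41.9 and 43.2 in KO3, KO6 and KO7. In that measure every *Sirt6* KO library was below every WT library. *Ccng1* exceeded *Mdm2* 17.1-, 17.3- and 17.4-fold in TPM in WT1, WT4 and WT6, and 10.6-, 11.5- and 10.9-fold in KO3, KO6 and KO7. The ratio was thus nearly constant within each group, at 17.3 ± 0.140 in WT and 11.0 ± 0.460 in *Sirt6* KO (SD, n = 3 each), with no overlap. The ratio of *Trp53inp1* to *Mdm2* fell from 0.385 ± 0.0882 to 0.137 ± 0.0427 and that of *Cdkn1a* to *Mdm2* from 1.31 ± 0.506 to 0.601 ± 0.185 (SD, n = 3 each), each without overlap. For these 3 ratios the two-sided exact permutation test gave p = 0.1, which is the lowest possible value with groups of 3. The ratio of *Sesn1* to *Mdm2* overlapped between the groups (0.527, 0.877 and 0.536 in WT, 0.342, 0.574 and 0.350 in *Sirt6* KO, p = 0.3 in the same exact permutation test).

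**Figure D3:**
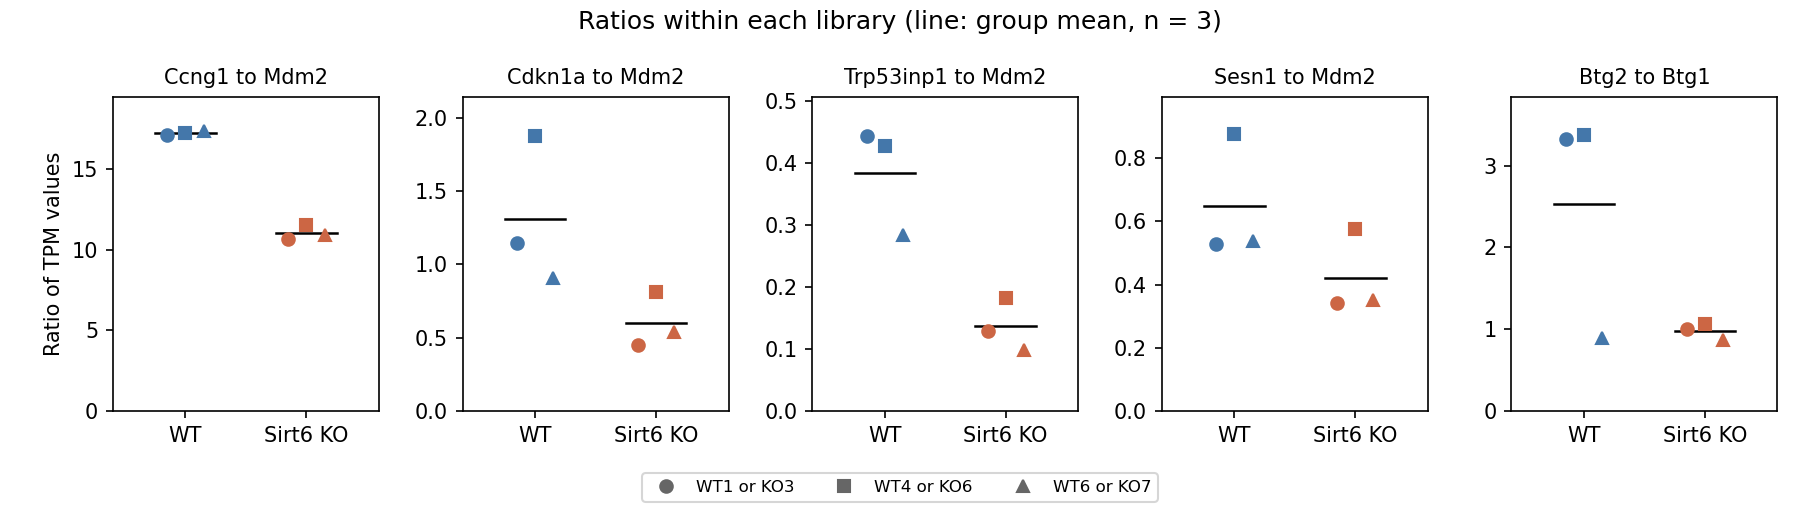
Ratio of deposited TPM values (y axis) of 2 genes within each library, 1 point per library, with the group mean as a line. *Ccng1* to *Mdm2* lies between 17.1 and 17.4 in WT and between 10.6 and 11.5 in *Sirt6* KO, and *Btg2* to *Btg1* in WT6 (0.891) lies among the *Sirt6* KO libraries.

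Levels of different genes were compared per transcript length, in deposited FPKM. In WT the order was *Ccng1* (374 ± 3.17), *Gadd45g* (108 ± 17.0), *Cdkn1a* (28.4 ± 11.1), *Mdm2* (21.6 ± 0.0972), *Gadd45a* (20.1 ± 10.01), *Gadd45b* (14.6 ± 10.6), *Sesn1* (14.0 ± 4.39), *Btg2* (9.19 ± 4.77), *Trp53inp1* (8.33 ± 1.93) and *Btg1* (3.76 ± 0.369 FPKM, SD, n = 3). Only 3 of the 9 neighbouring pairs in this order were apart in all libraries: *Ccng1* over *Gadd45g*, *Gadd45g* over *Cdkn1a*, and *Trp53inp1* over *Btg1*. In *Sirt6* KO, *Ccng1* was again first (200.1 ± 7.59), followed by *Gadd45g* (52.6 ± 37.3) and *Gadd45a* (19.5 ± 3.80), while *Cdkn1a* had moved below *Mdm2* (10.8 ± 2.85 against 18.2 ± 1.13) and *Btg2* and *Trp53inp1* to the end (2.95 ± 0.401 and 2.48 ± 0.722 FPKM, SD, n = 3). There, *Ccng1* and *Gadd45g*, *Mdm2* and *Cdkn1a*, and *Gadd45b* and *Btg1* were the neighbours apart in all libraries.

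**Figure D4:**
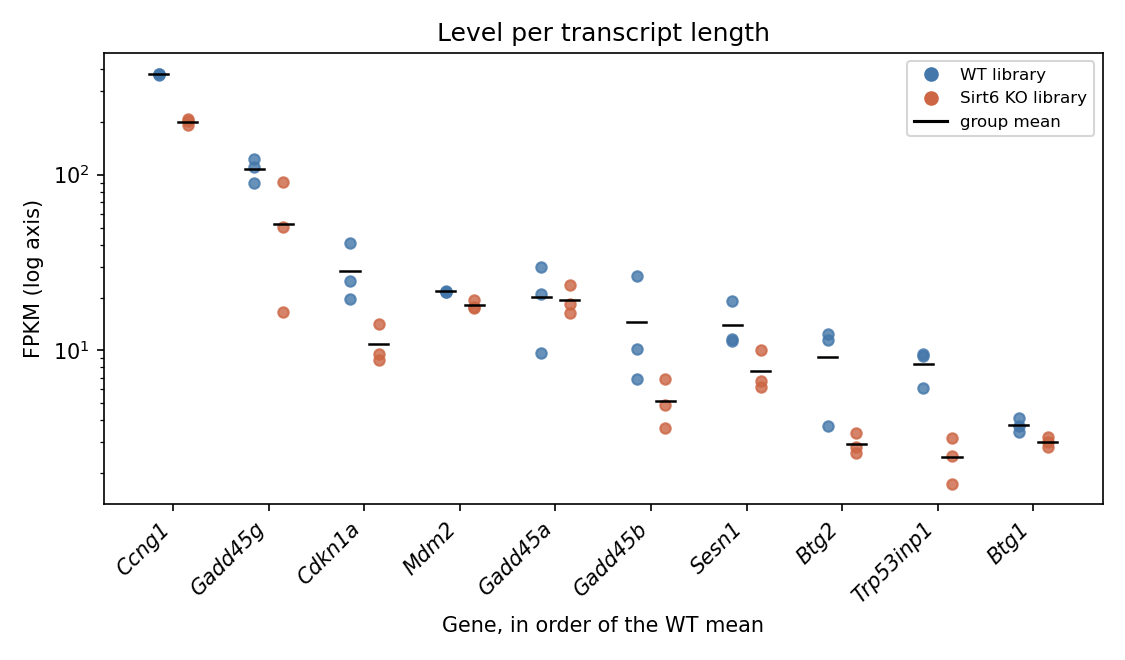
FPKM of the 10 genes (y axis, log scale) in each WT and *Sirt6* KO library, with group means as lines, in the order of the WT mean (x axis). *Ccng1* stands above all others in both groups, at 374 and 200.1 FPKM on average.

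For each growth arrest gene, the 3 tested genes with the most similar pattern were found by the root mean square (RMS) difference of centered log2 levels over the 6 libraries, a measure in which the group difference and the spread between animals both count. Nearest to *Cdkn1a* were *Klf15*, *Kcnc1* and *B4galt4* (RMS difference 0.092 to 0.15). *Klf15* is a transcription factor induced by glucocorticoids and fasting. *Dusp1*, *Id1* and *Hecw2* were nearest to *Btg2* (0.12 to 0.14), of which *Dusp1* encodes an immediate-early phosphatase of MAP kinases. *Trp53inp1* was closest to *Sgms2*, *Klf6* and *Edn1* (0.11 to 0.15), and *Ccng1* to *Abhd17b*, *Ube2b* and *Gtf2a2* (0.049 to 0.057). *Sesn1* was matched best by *Pdk4*, *Baiap2* and *Nfatc1* (0.098 to 0.13), of which *Pdk4* encodes the kinase that shuts off pyruvate dehydrogenase in fasting. The nearest genes to *Gadd45a* were *6430706D22Rik*, *Bbc3* and *1810041L15Rik* (0.12 to 0.23). *Bbc3* encodes the p53-induced cell death protein Puma and, like *1810041L15Rik*, was a rare transcript (means of 1.11 and 0.217 CPM in WT). The nearest genes to *Gadd45b* were *A730063M14Rik*, *Pcdhgc5* and *Hk2* (0.15 to 0.29), those of *Gadd45g* were *C1qtnf7*, *Ppfia2* and *Tal2* (0.25 to 0.32), those of *Btg1* were *Zfp869*, *Pir* and *Prob1* (0.025 to 0.038), and those of *Mdm2* were *Ufd1l*, *Ddx42* and *Usp19* (0.0058 to 0.020). The RMS of a gene's own centered levels ran from 0.10 in *Mdm2* to 0.93 in *Gadd45g*. Small differences are therefore easier to reach for genes that vary little.

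The genes around these 10 were read from 8 lists of the pathway. Among 38 other p53 target genes, 33 were tested, of which 3 fell and 3 rose, with a median log2 fold change of 0.098 against -0.021 over all genes. The 3 lower genes were *Ercc5*, which encodes the repair endonuclease XPG (-0.89, SE 0.14, adjusted p = 0.0140 by edgeR), *Rrm2b*, a subunit of ribonucleotide reductase (-0.61, SE 0.11, adjusted p = 0.0178), and *Plk3*, a stress-responsive Polo-like kinase (-2.59, SE 0.71, adjusted p = 0.0476). *Eda2r*, a death receptor, was 1 of the 3 higher genes with 21.9 ± 11.95 CPM in WT and 57.0 ± 3.95 in *Sirt6* KO (SD, n = 3 each), a difference of 1.38 on the log2 scale (SE 0.38, adjusted p = 0.0476). The others were *Trp53i11* (1.08, SE 0.29, adjusted p = 0.0446) and the ubiquitin ligase gene *Trim32* (0.68, SE 0.17, adjusted p = 0.0388). With the GC correction the call was lost for *Rrm2b* (-0.28, adjusted p = 0.136), *Plk3* (0.0551), *Trim32* (0.0754) and *Trp53i11* (0.0974). The list's 6 called genes of 33 are to be read against the 16.2% of all genes called in either direction, which is a similar share. The counts of called genes in the lists below have the same background of 16.2%. For counts at an unadjusted p under 0.05 the background is 35.3% of all genes.

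*Trp53*, which encodes p53 itself, was at 10.9, 8.06 and 12.4 CPM in WT1, WT4 and WT6 and at 20.9, 16.7 and 18.3 in KO3, KO6 and KO7. It was higher in every *Sirt6* KO library, with a log2 fold change of 0.83 (SE 0.18, adjusted p = 0.0257 by edgeR), in the direction opposite to the 4 growth arrest genes that fell. After removal of the trend over GC it was 0.69 (adjusted p = 0.0583). Of the 20 genes of the p53 family and its regulators tested, *Kat5*, an acetyltransferase of p53, also rose (0.72, SE 0.15, adjusted p = 0.0251) and *Trp53inp2*, an autophagy gene related to *Trp53inp1*, fell (-0.72, SE 0.15, adjusted p = 0.0234), from 640.4 ± 82.7 to 390.1 ± 34.7 CPM (SD, n = 3 each). *Mdm4*, the partner of *Mdm2* in holding p53 back, had a log2 fold change of -0.033 (SE 0.13, adjusted p = 0.874). *Kat5* did not pass with the GC correction (adjusted p = 0.0691).

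Of 15 CDK inhibitors and pocket proteins tested, 2 fell, *Cdkn1b*, which encodes p27 (-0.49, SE 0.10, adjusted p = 0.0246 by edgeR), and *Rb1*, the retinoblastoma protein gene (-0.52, SE 0.11, adjusted p = 0.0229). With the GC correction neither passed (-0.27 and -0.24, adjusted p = 0.138 and 0.186). *Cdkn1c*, another gene of the p21 family, was at 25.6 ± 4.11 CPM in WT and 23.9 ± 0.930 in *Sirt6* KO (SD, n = 3 each, adjusted p = 0.632). Of 20 cyclins, CDKs and proliferation markers tested, *Mcm3*, *Mcm2* and *Mcm5*, subunits of the replication helicase, rose (log2 fold changes 1.23, 0.80 and 1.28, SE 0.15, 0.16 and 0.26, adjusted p = 0.0128, 0.0225 and 0.0228), and *Ccnb2*, at 0.348 ± 0.121 CPM in WT, fell (-2.001, SE 0.52, adjusted p = 0.0423; 0.0599 with the GC correction). Of the 20 genes 13 had a log2 fold change below 0, among them *Mcm6*, another helicase subunit (-0.89, adjusted p = 0.344), *Rrm2* (-0.95, adjusted p = 0.0703) and *Mki67* (-1.20, adjusted p = 0.189), which did not pass. The satellite cell markers *Pax7* and *Myf5* were higher in the same libraries, at 1.18 ± 0.144 against 0.483 ± 0.0601 and at 3.54 ± 0.717 against 1.41 ± 0.339 CPM (SD, n = 3 each; adjusted p = 0.0299 and 0.0225 by edgeR). The 7 markers of that list summed to between 88.1 and 186 CPM in WT and to between 60.1 and 72.7 in *Sirt6* KO. *Sdc4* made up most of these sums, at 135, 165 and 71.6 CPM in WT1, WT4 and WT6 and at 36.3, 50.6 and 52.7 in KO3, KO6 and KO7. The sums therefore mainly follow *Sdc4*. The part of the satellite cell markers in the result was not tested.

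Among 17 relatives and partners of the Btg proteins, 4 fell and 1 rose. *Tob1*, an antiproliferative gene of the same family, fell, without the low WT6 of *Btg2*, being at 464, 293 and 355 CPM in WT1, WT4 and WT6 and at 127, 159 and 113 in KO3, KO6 and KO7 (log2 fold change -1.48, SE 0.21, adjusted p = 0.0132 by edgeR). *Btg3*, a rare transcript at 1.40 ± 0.103 CPM in WT and 0.476 ± 0.0761 in *Sirt6* KO (SD, n = 3 each), fell as well (-1.55, SE 0.28, adjusted p = 0.0178). *Tob2* had a log2 fold change of -0.74 (SE 0.28, adjusted p = 0.110). The deadenylase genes *Pan3* and *Cnot4* fell (-0.56 and -0.55, SE 0.12 and 0.13, adjusted p = 0.0272 and 0.0309), calls that were lost with the GC correction (-0.48 and -0.15, adjusted p = 0.0540 and 0.439), and *Prmt1*, the arginine methyltransferase that binds Btg1 and Btg2, rose by 1.02 on the log2 scale (SE 0.14, adjusted p = 0.0132) between means of 47.3 ± 5.80 CPM in WT and 95.9 ± 13.0 in *Sirt6* KO (SD, n = 3 each).

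None of 16 partners of the Gadd45 proteins and p38 or JNK pathway kinases passed the threshold of edgeR's test, with 5 at an unadjusted p under 0.05 and 3 past the threshold of DESeq2. Of 19 partners of the sestrins in the GATOR and mTORC1 pathway, 3 fell and 4 rose. The 3 that fell encode folliculin and both of its binding partners: *Flcn* (-1.39, SE 0.19, adjusted p = 0.0131 by edgeR), *Fnip1* (-0.94, SE 0.17, adjusted p = 0.0171) and *Fnip2* (-1.34, SE 0.35, adjusted p = 0.0429). *Flcn* was at 242, 300.2 and 219 CPM in WT1, WT4 and WT6 and at 76.1, 110.03 and 104 in KO3, KO6 and KO7. Of the 4 that rose, *Wdr59*, *Wdr24* and *Sec13* encode parts of GATOR2, the complex that sestrins bind (0.81, 0.81 and 0.70, SE 0.13, 0.15 and 0.13, adjusted p = 0.0144, 0.0181 and 0.0189), and *Rraga* encodes a Rag GTPase (0.41, SE 0.11, adjusted p = 0.0488). The GATOR2 genes *Mios* and *Seh1l* had log2 fold changes of -0.26 and -0.081 and did not pass (adjusted p = 0.219 and 0.678). With the GC correction the calls of *Fnip1* (0.0738), *Fnip2* (0.0585), *Wdr24* (0.0536) and *Rraga* (0.0651) were lost.

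Of 19 genes of denervation and atrophy tested, 3 fell and 4 rose. The ubiquitin ligase genes *Trim63* (-1.81, SE 0.33, adjusted p = 0.0181 by edgeR) and *Fbxo30* (-1.25, SE 0.18, adjusted p = 0.0132) fell, as did *Myog* (-0.96, SE 0.20, adjusted p = 0.0246), the myogenic factor induced by denervation. *Trim63* was at 1177, 2886 and 2551 CPM in WT1, WT4 and WT6, and at 561, 612 and 719 in KO3, KO6 and KO7. The acetylcholine receptor genes *Chrnb1* (1.27, SE 0.20, adjusted p = 0.0138), *Chrne* (1.35, SE 0.35, adjusted p = 0.0406) and *Chrna1* (0.73, SE 0.20, adjusted p = 0.0464) and the ubiquitin ligase gene *Fbxo21* (0.90, SE 0.12, adjusted p = 0.0131) rose, of which *Chrne* (0.0714) and *Chrna1* (0.0501) did not pass with the GC correction. *Cdkn1a* thus went with the first 3 of these genes and *Gadd45a*, the other denervation-responsive gene of the 10, went with neither.

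**Figure D5:**
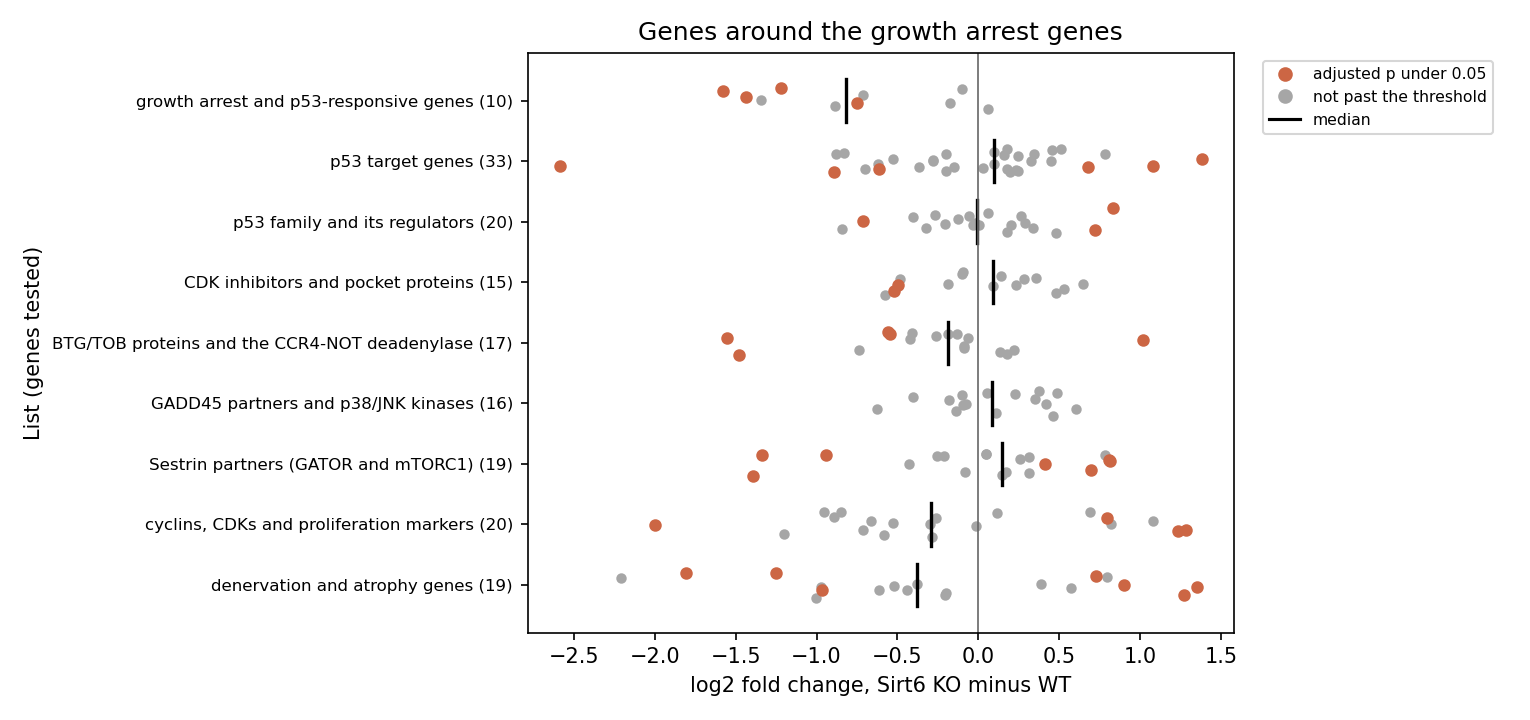
Log2 fold change (x axis, *Sirt6* KO minus WT) of every tested gene of the 10 growth arrest genes and the 8 lists around them (y axis, genes tested in brackets), with the list medians as lines. The growth arrest genes have a median of -0.82, the other p53 targets one of 0.098, and genes past the threshold lie on both sides in most lists.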

How the data were processed

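RNA-seq of 6 GAS muscle samples was analysed, 1 library per sample, with groups and replicate numbers from the sample labels. Poly-A RNA was sequenced, from a kit that the labels call stranded and the study's methods name as a kit without strand. Reads were counted per gene on mm10, and the submitters' processing notes name HISAT2 2.1.0, Bowtie2 2.3.4.1 and StringTie 2.1.3b, while the reporting summary names STAR. The deposited read counts are whole numbers without normalization between libraries. The deposited FPKM values are scaled by the authors to transcript length and depth, and the deposited TPM values to a fixed sum in each library.

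Counts were tested in R 4.3.3 with edgeR 4.0.16: filterByExpr, TMM normalization, a quasi-likelihood fit on the group, and Benjamini-Hochberg adjustment over all 13801 genes tested. SEs were derived from the F statistic. 1 count was worth 0.0165 to 0.0212 CPM, and the biological coefficient of variation was 24.1%. Replicates of a group differed by more than counting noise (chi-square per degree of freedom 44.0 or more), so none was counted as a repeat. FPKM and TPM were used for levels between genes, for ratios within a library (exact permutation tests, scipy 1.17.1) and, with limma 3.58.1, for alternatives. DESeq2 1.42.0 was another alternative. GC content was that of the longest GENCODE M21 transcript, known for 96.2% of the genes tested, all 10 growth arrest genes among them, and its lowess trend (span 0.3) was removed per library. The main fit, DESeq2 and limma on log2(FPKM + 1) were tested on simulated data. So were edgeR with other scaling factors, with the replicate number as a block, and with the GC correction. The remaining alternatives, those without a library among them, were not. Coordinates are those of RefSeq on GRCm38.p6, the build of mm10.

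The growth arrest genes, the lists and the alternatives were chosen with earlier results of these data known. Named were the 10 growth arrest genes, *Sirt6* and *Myl1*, every listed gene past the threshold (at most 4 in each direction per list), 8 relatives fixed by name, and the 3 nearest genes by pattern. *Pax7*, *Myf5*, *Sdc4*, *Cnn1*, *Rgs5*, *Myh7*, *Tnnt1*, *Mcm6*, *Rrm2*, *Mki67*, *Mios*, *Seh1l* and *E230016M11Rik* were named after their values were seen. The labels do not say whether the samples came from separate litters or days.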

Additional observations from a re-analysis of the deposited data

How the results depend on the processing

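Of the 10 growth arrest genes, 4 passed the adjusted threshold, against 2 with limma on log2(FPKM + 1), 2 after the GC correction, and between 0 and 4 when a library was left out. The other alternatives called 3 to 6. Of the genes of the lists around them 34 passed, against 17 after the GC correction and between 0 and 53 with a library left out. All 34 kept their direction under every alternative in which they were tested. Over all genes, 2242 passed, against 3420 with DESeq2, 947 after the GC correction, and between 8 (without KO3) and 4582 (without WT6) with a library left out. Leaving out a library leaves 5 samples, and the cause of the other differences was not tested. The scaling between libraries moved the median log2 fold change over all genes by less than 0.1, and called the same 4 growth arrest genes.

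Signs turned for 3 genes that did not pass: *Btg1* (0.049) and *Mdm2* (0.0092) after the GC correction, and *Gadd45a* without WT1 (-0.29) or KO7 (-0.12), with a highest value of 0.57 in the fits without a library. The replicate number as a block called 6 growth arrest genes (*Gadd45b* and *Sesn1* in addition to the 4), 31 listed genes and 1922 genes in all. With the block and the GC correction together, 4, 21 and 760 passed, and *Btg1* (0.063) and *Mdm2* (0.014) again lay above 0. Libraries with the same number did not deviate together in all pairs (Pearson's r across genes -0.11, 0.26 and 0.16), so the numbers were not taken as pairs. The neighbours apart in the order of FPKM numbered 3 in each group, 3 with TPM, and 3 to 5 in WT and 3 to 6 in *Sirt6* KO with a library left out.

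With 3 animals in a group an exact permutation test cannot give a p under 0.1. The depth, at 319 counts or more for each growth arrest gene in every library, gave less counting error than the spread between animals in CPM. This does not hold for the WT spread of *Mdm2* in FPKM (21.6 ± 0.0972, SD, n = 3), at 3303 to 4643 counts. Nor does it hold for the WT ratio of *Ccng1* to *Mdm2* (17.3 ± 0.140, SD, n = 3).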
